A study of Mus musculus with 70 samples.

Results

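The comparison described here is that of wild-type cortex with wild-type cerebellum, 8 samples of each, at 12 weeks of age. The 16 samples were chosen by their labels (tissue cortex or cerebellum, genotype WT) out of 70 in the series. The series was made to study Capicua, a transcriptional repressor, and sequenced polyA-selected RNA of mouse lung, cortex and cerebellum. Its 3 genotypes are Cic-S-KO, which lacks the short isoform, Cic-L-KO, which lacks the long one, and WT, their wild-type littermates. The design text says that WT animals from both lines were pooled as controls, so a WT sample can come from either line. The labels give neither a strain, a sex nor an animal number, and p-values below therefore measure the spread between these samples. All 16 samples carry the label of batch 2. The 7 Cic-S-KO samples and the 8 Cic-L-KO samples of each region, also 12 weeks old and of batch 2, were used only to look at the same regional contrast in other samples.

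The cerebral cortex develops from the telencephalon, and its principal cells are glutamatergic pyramidal neurons arranged in layers, accompanied by several classes of GABA-releasing interneurons that migrate in from the ganglionic eminences. The cerebellum develops from the hindbrain, and nearly all its neurons are small glutamatergic granule cells. The output neurons of the cerebellar cortex are the large GABA-releasing Purkinje cells. Regional identity is set during development by transcription factors, many of which stay on in the adult. Adult neurons of the regions then differ in the receptor subunits, channels and calcium-handling proteins they use.

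Values are counts scaled to library size (CPM) after trimmed-mean normalisation. For each gene the range over the 8 libraries of a region is given with its median. Fold changes are on the log2 scale, cerebellum minus cortex, with their standard error, so that positive values are higher in cerebellum. The adjusted p is that of edgeR's quasi-likelihood test over all 16219 genes tested, with Benjamini-Hochberg adjustment at 0.05. A second call, more than 2-fold, used edgeR's test against a 2-fold change on the same fit.

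Total counts were 21724461 to 27793760 per cortex library and 23615768 to 30464699 per cerebellum library. Between 23163 and 27004 genes had at least 1 count, and the number of genes detected did not differ between regions at this spread (exact permutation test, adjusted p = 0.0800 over 3 measures). The 100 most counted genes took 19.3% ± 0.476 of the counts in cortex and 18.1% ± 0.382 in cerebellum (SD, n = 8 each, two-sided exact permutation test, adjusted p = 0.000932). Mitochondrially encoded genes took 4.56% ± 0.258 and 4.22% ± 0.352 (adjusted p = 0.0683 in the same exact permutation test). None of the 28 pairs of libraries within a region were identical or within sampling noise. Genes of chromosome 1 were not analysed here. For genes that overlap others, counts are uncertain, since the strand setting of the counting is not given in the sources used here.

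Most expressed genes differed between the regions, and a minority differed strongly. Of 16219 genes, 6201 were higher in cerebellum (38.2%) and 6019 in cortex (37.1%), 75.3% in all. More than 2-fold differences were fewer and leaned to cortex: 1771 genes were more than 2-fold higher in cortex (10.9%) and 1184 in cerebellum (7.30%), 18.2% in all. The median size of the log2 difference was 0.44 over all genes, and the median signed difference was 0.02. In 7744 genes (47.7%) the 8 values of a region all lay above the 8 of the other. Differences beyond 16-fold were estimated for 318 of the genes called in cortex and 173 of those called in cerebellum.

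**Figure D1:**
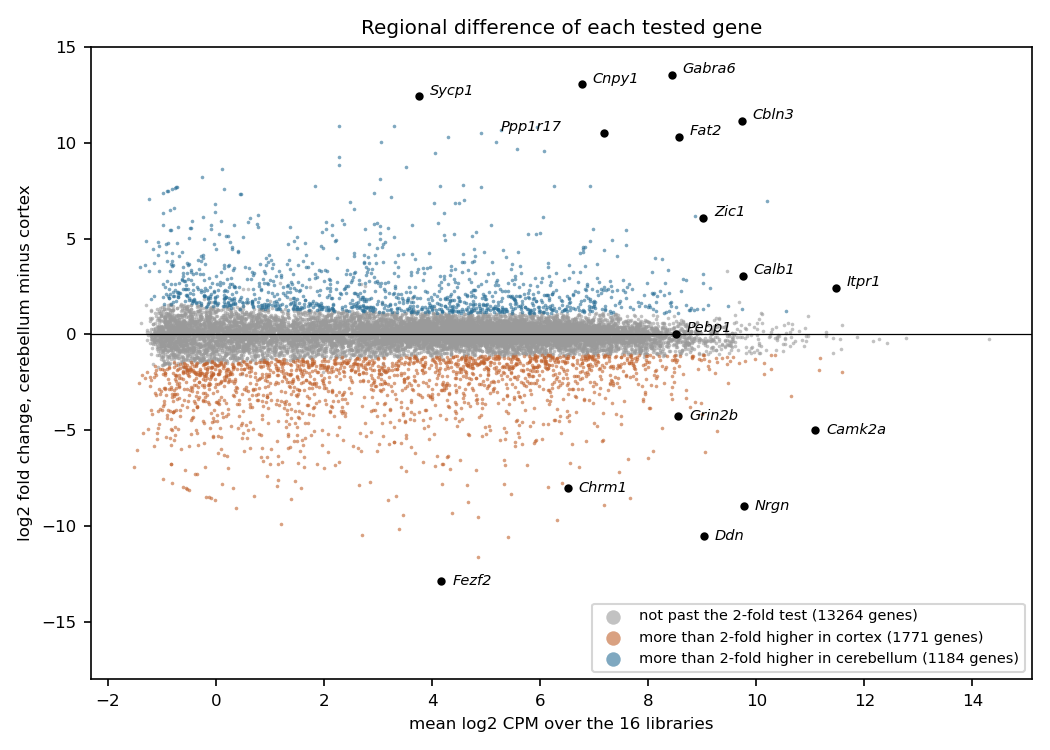
Each point is 1 of the 16219 tested genes, with the mean log2 CPM over the 16 libraries on the x axis and the log2 fold change (cerebellum minus cortex) on the y axis; colours mark the genes past the 2-fold test. The 1771 genes called in cortex lie below 0 and the 1184 called in cerebellum above it, out to Fezf2 and Gabra6.

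The promoters of region-biased genes were on average poorer in CpG dinucleotides than those of all tested genes, the biased ones included. RefSeq start-site windows (GRCm38.p6, 250 bases before to 50 after the start, 1 window a gene) were matched by symbol for 11466 tested genes. Where a gene had several windows the first listed was taken, which need not be the start used in these tissues. An observed to expected CpG ratio of at least 0.6 was found in 67.1% of all windows. The share was 46.6% among 799 genes more than 2-fold higher in cerebellum and 48.8% among 1212 more than 2-fold higher in cortex. It was 86.4% among 140 genes whose 95% interval of the log2 fold change lay within 0.1 of 0. The median ratio was 0.738 over all windows, 0.567 and 0.580 for the cerebellar and the cortical genes, and 0.849 for the genes of narrow interval. A narrow interval also needs a small standard error, so the 140 genes were selected for precise measurement too. These are descriptions of sequence, and their part in the regional difference was not tested.

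The windows of 6 genes show that range. Gabra6 and Cbln3 were among the genes with the largest excess in cerebellum, Neurod6 and Neurod1 are related genes that differed in opposite directions, and Pebp1 and Cadm4 had narrow intervals around 0. Each window is written 5′ to 3′ on the strand of the gene, and capitals mark CpG dinucleotides.
Gabra6 (chr11:42321023-42321322, minus strand): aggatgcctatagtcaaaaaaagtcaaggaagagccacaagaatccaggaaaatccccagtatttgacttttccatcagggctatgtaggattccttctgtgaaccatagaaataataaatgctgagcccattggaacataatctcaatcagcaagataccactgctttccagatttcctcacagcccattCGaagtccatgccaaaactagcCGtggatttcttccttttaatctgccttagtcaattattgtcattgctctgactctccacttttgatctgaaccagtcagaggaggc
Cbln3 (chr14:55884207-55884506, minus strand): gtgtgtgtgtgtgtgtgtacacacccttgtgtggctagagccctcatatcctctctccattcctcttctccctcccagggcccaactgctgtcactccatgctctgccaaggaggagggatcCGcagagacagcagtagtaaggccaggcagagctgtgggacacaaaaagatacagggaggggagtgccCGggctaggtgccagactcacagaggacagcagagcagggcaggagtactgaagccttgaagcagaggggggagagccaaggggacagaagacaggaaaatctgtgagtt
Neurod6 (chr6:55681214-55681513, minus strand): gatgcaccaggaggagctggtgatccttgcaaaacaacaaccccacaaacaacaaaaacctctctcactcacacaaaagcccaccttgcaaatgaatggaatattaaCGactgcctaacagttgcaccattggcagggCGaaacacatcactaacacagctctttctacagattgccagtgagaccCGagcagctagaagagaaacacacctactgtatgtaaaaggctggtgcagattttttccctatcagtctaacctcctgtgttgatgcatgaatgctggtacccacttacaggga
Neurod1 (chr2:79456587-79456886, minus strand): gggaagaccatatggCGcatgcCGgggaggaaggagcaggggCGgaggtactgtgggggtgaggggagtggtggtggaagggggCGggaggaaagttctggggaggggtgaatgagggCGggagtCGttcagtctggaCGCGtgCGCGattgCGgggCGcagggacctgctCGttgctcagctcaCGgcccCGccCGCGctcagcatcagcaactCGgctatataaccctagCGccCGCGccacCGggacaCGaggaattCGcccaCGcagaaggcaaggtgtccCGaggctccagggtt
Pebp1 (chr5:117287515-117287814, minus strand): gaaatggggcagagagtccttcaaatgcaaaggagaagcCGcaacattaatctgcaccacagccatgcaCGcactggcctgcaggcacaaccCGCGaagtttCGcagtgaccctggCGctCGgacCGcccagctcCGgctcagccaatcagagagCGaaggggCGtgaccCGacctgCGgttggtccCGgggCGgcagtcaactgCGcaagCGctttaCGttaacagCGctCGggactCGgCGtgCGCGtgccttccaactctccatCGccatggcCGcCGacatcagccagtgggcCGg
Cadm4 (chr7:24481773-24482072, plus strand): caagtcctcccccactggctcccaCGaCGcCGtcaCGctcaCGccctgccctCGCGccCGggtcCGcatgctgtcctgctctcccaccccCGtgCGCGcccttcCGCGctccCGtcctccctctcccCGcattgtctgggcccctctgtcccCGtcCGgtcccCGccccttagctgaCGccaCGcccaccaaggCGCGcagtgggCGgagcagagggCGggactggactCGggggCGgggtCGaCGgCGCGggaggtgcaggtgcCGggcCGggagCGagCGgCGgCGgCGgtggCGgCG

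The windows of Gabra6 and Cbln3 held 2 CpG dinucleotides each, and that of Neurod6 held 3. Neurod1, which also differed strongly, held 26, so a CpG-poor window was not shared by all region-biased genes. Pebp1 held 28 and Cadm4 held 40. Short motifs, 8 in all, were searched on both strands in all windows, and they can overlap each other. TATAAA, the core of the TATA box, was in 7.45% of all windows, 10.3% of the cerebellar set and 11.1% of the cortical set. TGACGTCA, the cyclic AMP response element, was in 3.10%, 1.25% and 1.82% of them. CAGATG, an E-box that NEUROD factors bind, was in 12.2%, 17.02% and 14.5%. The other motifs were AGGTCA (12.2%, 14.6% and 11.2%), TAATTA (2.62%, 4.01% and 3.63%), TGACTCA (3.51%, 4.88% and 4.37%), GCGTGGGCG (1.22%, 0.876% and 1.16%) and TGAATGAA (0.820%, 1.38% and 0.908%). Of the 6 windows shown, Neurod1 alone matched any of the motifs, the EGR motif GCGTGGGCG.

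Transcription factors that pattern the forebrain and the hindbrain separated the regions by wide gaps. Of 13 tested telencephalic factors, 11 were more than 2-fold higher in cortex, against 10.9% of all genes, and 2 were higher in cerebellum. This list, the hindbrain list and the cell type lists were chosen with known patterns and earlier results of these data in mind. Their shares are therefore descriptions, not tests. Tbr1, a factor of deep-layer pyramidal neurons, was at 155 to 185 CPM (median 163) in cortex and 0.555 to 1.01 CPM (median 0.769) in cerebellum. Every cortex library was far above every cerebellum library, with a log2 fold change of -7.75 ± 0.08 (adjusted p = 3.69e-27).

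Fezf2 and Emx2 were nearly confined to cortex by count. Fezf2, which specifies subcortically projecting neurons of layer 5, had 6933 reads over the 8 cortex libraries and 0 in cerebellum. With a floor of 3 counts over the total counts of the group, its level was at least 2553-fold higher in cortex. Such floors, and the ratios of reads given here and below, used total counts without the trimmed-mean factors. Emx2, a homeobox gene of the developing cortex, had 2516 reads against 1, a ratio of 2655 with a 95% counting interval of 476 to 104910. The median log2 fold change of the list was -5.62, also with Fezf2 at its bound, beside 0.02 over all genes.

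The exceptions in the telencephalic list were Neurod2 and Bhlhe22, basic helix-loop-helix factors of glutamatergic neurons. Neurod2 was at 101 to 119.95 CPM (median 105) in cortex and 156 to 188 CPM (median 177) in cerebellum, a log2 fold change of 0.72 ± 0.04 (edgeR adjusted p = 2.04e-13). Bhlhe22 was at 56.1 to 67.6 CPM (median 65.5) and 99 to 136 CPM (median 108), a log2 fold change of 0.79 ± 0.06 (adjusted p = 1.01e-11). Both were abundant in both regions, and their libraries still did not overlap. Granule cells, which are glutamatergic, are known to express Neurod2.

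All 20 tested factors of the hindbrain and cerebellar list were higher in cerebellum, 19 of them more than 2-fold, against 7.30% of all genes. The median log2 fold change was 5.93. Zic1, a zinc-finger factor of granule cells, was at 6.9 to 20.7 CPM (median 16.1) in cortex and 878 to 1116 CPM (median 1018) in cerebellum, a log2 fold change of 6.08 ± 0.20 (edgeR adjusted p = 1.66e-13). En2, which patterns the midbrain and hindbrain border, was at 0.152 to 1.59 CPM (median 0.739) and 124 to 189.9 CPM (median 150.3). Its log2 fold change was 7.74 ± 0.20 (adjusted p = 3.11e-15), and the regions were far apart.

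Factors of single cerebellar cell classes showed the same direction. Lhx1, a LIM homeobox factor kept on in Purkinje cells, was at 0 to 0.13 CPM (median 0.0239) in cortex and 61.5 to 85.4 CPM (median 78.5) in cerebellum, a log2 fold change of 10.68 ± 0.17 (edgeR adjusted p = 2.26e-22). Skor2, a Purkinje cell corepressor, had 1 read in cortex and 4224 in cerebellum, a ratio of 4003 with a counting interval of 718 to 158138. Pax6, a paired-box factor of granule cells that cortical progenitors also use, was at 11.9 to 18.6 CPM (median 15.5) in cortex and 120.02 to 156 CPM (median 142) in cerebellum (log2 fold change 3.20 ± 0.08, adjusted p = 3.21e-18). The smallest difference in the list was that of Foxp4, at 34.8 to 44.5 CPM (median 39.7) in cortex and 69.1 to 78.9 CPM (median 73.5) in cerebellum (log2 fold change 0.90 ± 0.05, adjusted p = 1.01e-14). Even there the libraries of the regions did not overlap.

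Markers of the neurons that give each region its name followed the labels. Counts over cell type lists are to be read against all tested genes. Of those, 38.2% were higher in cerebellum and 37.1% in cortex, and 7.30% and 10.9% passed the 2-fold test. All 12 tested granule neuron markers were more than 2-fold higher in cerebellum, with a median log2 fold change of 4.80. Gabra6, the granule cell subunit of the GABA-A receptor, was at 0 to 0.242 CPM (median 0.019) in cortex and 573 to 811 CPM (median 701) in cerebellum. Its log2 fold change of 13.56 ± 0.19 was the largest of all 16219 genes towards cerebellum (edgeR adjusted p = 3.91e-20). The cortex libraries together held 10 reads of it, 6 of them in replicate 5, and without that replicate of both regions the log2 fold change was 14.53. The regions were far apart.

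Cbln3, a secreted synaptic organizer of granule cells, was at 0.478 to 1.11 CPM (median 0.682) in cortex and 1528 to 1879.7 CPM (median 1687) in cerebellum (log2 fold change 11.13 ± 0.10, edgeR adjusted p = 1.15e-26). Fat2, a giant cadherin of granule cell axons, was at 0.0791 to 1.2 CPM (median 0.608) and 582 to 989 CPM (median 745) (log2 fold change 10.31 ± 0.22, adjusted p = 2.83e-16). Both were near 1 CPM or below in every cortex library. The summed level of the 12 markers was 340 to 369 CPM in cortex and 6353 to 8301 CPM in cerebellum.

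All 20 tested Purkinje cell markers were higher in cerebellum, 18 of them more than 2-fold, with a median log2 fold change of 3.13. Car8, a carbonic anhydrase relative that binds the IP3 receptor, was at 14.3 to 22.5 CPM (median 18.5) in cortex and 1845 to 2711 CPM (median 2327) in cerebellum (log2 fold change 6.97 ± 0.10, edgeR adjusted p = 1.42e-20). Ppp1r17, a phosphatase inhibitor, was at 0.0435 to 0.341 CPM (median 0.215) and 229.7 to 328 CPM (median 289.7) (log2 fold change 10.50 ± 0.13, adjusted p = 2.94e-23). Pcp2, whose name stands for Purkinje cell protein, was at 0.0791 to 0.282 CPM (median 0.193) in cortex and 108 to 153 CPM (median 137) in cerebellum (log2 fold change 9.56 ± 0.13, adjusted p = 2.79e-24). Other annotated genes cover 51.5% of the exon bases of Pcp2, so its level is uncertain, while the difference between its regions was far larger than their spread. Itpr1, the IP3 receptor itself, is also a cortical gene, at 789.9 to 1022 CPM (median 884) in cortex against 3611 to 5316 CPM (median 4951) in cerebellum (log2 fold change 2.42 ± 0.08, adjusted p = 2.49e-15).

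In bulk tissue, fewer cells of a type and less RNA per cell cannot be told apart, and that holds for each marker list here.

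Among cerebellar interneuron markers, 6 of 8 were higher in cerebellum, 4 of them more than 2-fold. Slc6a5, the glycine transporter of Golgi cells, was at 0 to 0.0956 CPM (median 0.0198) in cortex and 47.1 to 98.1 CPM (median 52.4) in cerebellum (log2 fold change 10.48 ± 0.33, edgeR adjusted p = 1.66e-14). The gene is also in the list of brainstem and monoamine neuron markers used below, and its highest cerebellum value was in replicate 1. Eomes, a T-box factor of unipolar brush cells, was at 0.0807 to 1.67 CPM (median 0.238) and 16.2 to 52.1 CPM (median 37.7) (log2 fold change 6.35 ± 0.43, adjusted p = 2.09e-09). The 2 markers that were higher in cortex were Grm2 and Lypd6, with log2 fold changes of -1.68 and -0.16. Grm2 is a presynaptic glutamate receptor that Golgi cells share with cortical neurons.

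Of 13 tested cortical excitatory neuron markers, 12 were higher in cortex, 11 of them more than 2-fold. Camk2a, the alpha subunit of calcium and calmodulin-dependent kinase II, was at 3737 to 4569 CPM (median 4228) in cortex and 121 to 141 CPM (median 131) in cerebellum (log2 fold change -5.01 ± 0.05, edgeR adjusted p = 1.49e-27). Nrgn, neurogranin, which binds calmodulin in dendrites, was at 1556 to 2018 CPM (median 1728) and 1.75 to 5.67 CPM (median 3.37) (log2 fold change -8.95 ± 0.19, adjusted p = 2.81e-16). Ddn, dendrin, a protein of the postsynapse, was at 983 to 1158 CPM (median 1035) in cortex and 0.162 to 1.6 CPM (median 0.46) in cerebellum (log2 fold change -10.53 ± 0.24, adjusted p = 8.51e-16). Per kilobase of exon, Nrgn was the third most abundant of the nuclear protein-coding genes tested in cortex, at 1202 CPM per kb, and was at 2.41 CPM per kb in cerebellum.

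Markers used in the cortex for glutamatergic cells in general differed less. Slc17a7, the vesicular glutamate transporter of both pyramidal and granule cells, was at 1603 to 1754 CPM (median 1653) in cortex and 542 to 649.9 CPM (median 598) in cerebellum (log2 fold change -1.48 ± 0.04, edgeR adjusted p = 9.91e-21). Nptx1, a neuronal pentraxin, went the other way, at 373 to 503 CPM (median 465) and 679.9 to 884 CPM (median 841) (log2 fold change 0.86 ± 0.06, adjusted p = 3.08e-11). It was the single member of that list that was higher in cerebellum.

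Of 21 cortical layer markers, 18 were higher in cortex and 15 of those more than 2-fold. Rorb, a nuclear receptor of layer 4, was at 42.6 to 61.4 CPM (median 52.7) in cortex and 10.9 to 14 CPM (median 12.8) in cerebellum (log2 fold change -2.08 ± 0.07, edgeR adjusted p = 1.22e-17). The 3 that were higher in cerebellum were Cux1, Etv1 and Nxph4. Etv1, an ETS factor of layer 5 neurons and a target that Capicua represses, was at 106 to 138 CPM (median 122) in cortex and 411 to 606 CPM (median 479.8) in cerebellum (log2 fold change 2.03 ± 0.08, adjusted p = 6.82e-15). Foxp2, a factor of layer 6 neurons and of Purkinje cells, was at 15.2 to 22 CPM (median 19) and 11.1 to 17 CPM (median 13), with overlapping libraries (log2 fold change -0.51 ± 0.09, adjusted p = 4.29e-05).

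Genes of cortical interneurons fell into separate sets. Of 27 tested, 20 were higher in cortex, 19 of them more than 2-fold, and 6 were higher in cerebellum. Transcription factors of ganglionic eminence origin were nearly absent from cerebellum: Lhx6 was at 19 to 25.8 CPM (median 23.2) in cortex and 0.0345 to 0.391 CPM (median 0.151) in cerebellum (log2 fold change -7.13 ± 0.20, edgeR adjusted p = 2.38e-18). Dlx6 had 883 reads in cortex and 0 in cerebellum, at least 326-fold higher. The peptide genes Vip and Sst also separated the regions, Vip at 42.5 to 56.5 CPM (median 51.8) in cortex and 0 to 0.738 CPM (median 0.0163) in cerebellum (log2 fold change -8.75 ± 0.32, adjusted p = 3.42e-13). Replicate 1 held 20 of the 25 cerebellum reads of Vip, and without that replicate of both regions the log2 fold change was -10.68. Sst was at 181 to 199.8 CPM (median 187) and 1.17 to 10.7 CPM (median 2.32) (log2 fold change -5.73 ± 0.31, adjusted p = 1.42e-10), and its highest cerebellum value was that of replicate 1.

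The machinery for GABA itself was common to both regions. Gad2, which makes GABA at synapses, was at 181 to 259 CPM (median 202) in cortex and 191 to 228 CPM (median 208) in cerebellum, and its regions overlapped (log2 fold change -0.02 ± 0.06, edgeR adjusted p = 0.797). Gad1, the other GABA-synthesising enzyme, was at 407 to 453 CPM (median 427) and 543 to 727 CPM (median 664) (log2 fold change 0.63 ± 0.04, adjusted p = 8.43e-12). Calcium-binding proteins that mark cortical interneurons were higher in cerebellum; both are also known from cerebellar neurons, Pvalb from Purkinje cells and Calb2 from granule cells. Pvalb, parvalbumin, was at 47.4 to 71.9 CPM (median 59.4) in cortex and 534 to 651 CPM (median 605) in cerebellum (log2 fold change 3.35 ± 0.07, adjusted p = 1.03e-19). Calb2, calretinin, was at 8.28 to 20.9 CPM (median 13.7) and 325 to 436 CPM (median 356) (log2 fold change 4.69 ± 0.16, adjusted p = 3.08e-13).

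**Figure D2:**
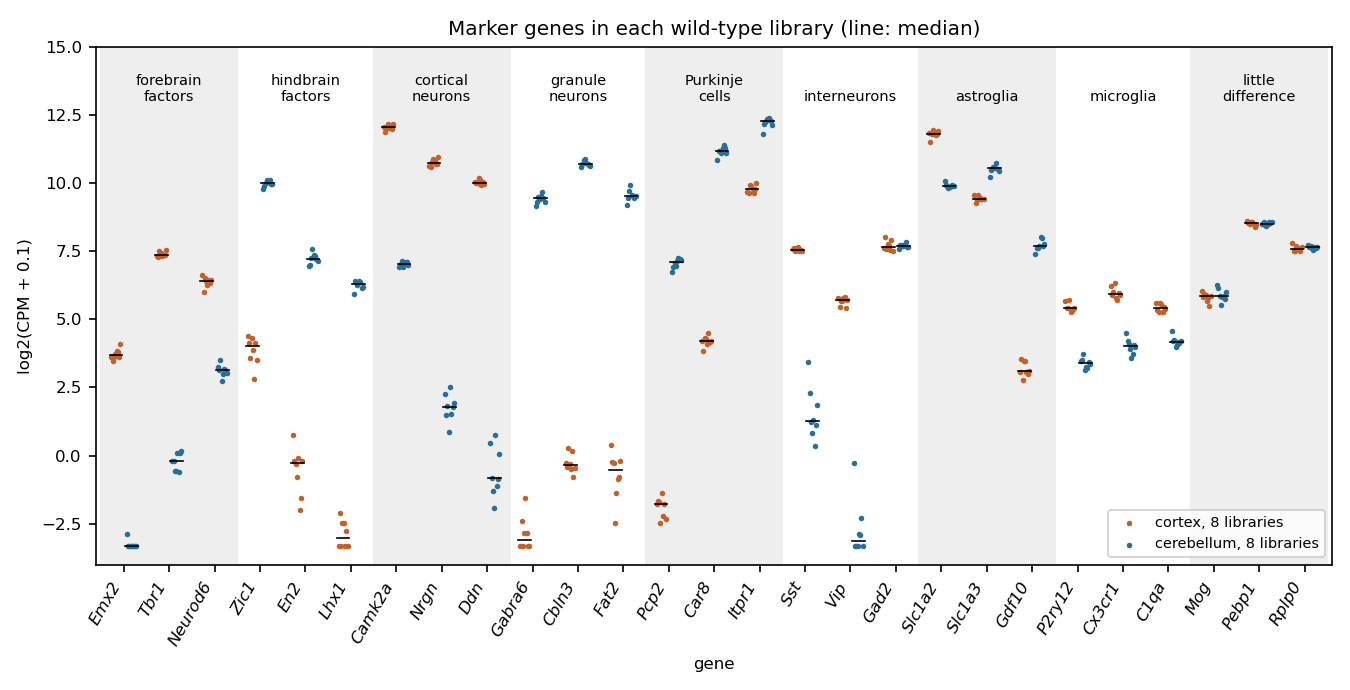
Each point is 1 of 8 libraries of cortex or cerebellum, plotted as log2(CPM + 0.1) for 27 genes grouped by class, and lines are medians. Neuronal identity genes are separated between the regions by wide gaps, while Gad2, Mog, Pebp1 and Rplp0 lie at the same level in both.

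Glial genes differed by cell class. All 9 Bergmann glia markers were higher in cerebellum, 7 of them more than 2-fold; these are the radial astrocytes that accompany Purkinje cells. Gdf10, a growth factor of the BMP family, was at 6.69 to 11.5 CPM (median 8.43) in cortex and 167 to 261 CPM (median 207) in cerebellum (log2 fold change 4.54 ± 0.12, edgeR adjusted p = 1.59e-15). Glutamate uptake carriers of astroglia were opposite to each other. Slc1a2 was at 2944 to 4011 CPM (median 3605) in cortex and 906 to 1092 CPM (median 963) in cerebellum (log2 fold change -1.89 ± 0.05, adjusted p = 8.76e-20). Slc1a3 was at 626 to 758 CPM (median 684) and 1199.9 to 1716 CPM (median 1494) (log2 fold change 1.09 ± 0.05, adjusted p = 3.47e-14). For both, the libraries of the regions did not overlap.

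Astrocyte markers as a list did not point one way. Of 13, 8 were higher in cerebellum (61.5%), 4 in cortex (30.8%, near the 37.1% of all genes), and Aldh1l1 did not pass. Aqp4, the water channel of astrocyte endfeet, was at 138 to 187 CPM (median 157) in cortex and 493 to 587 CPM (median 514) in cerebellum (log2 fold change 1.71 ± 0.05, edgeR adjusted p = 6.46e-19). Agt, angiotensinogen, was at 5.78 to 15.2 CPM (median 10.4) and 68.7 to 88.1 CPM (median 77.2) (log2 fold change 2.85 ± 0.16, adjusted p = 1.15e-10). The general astrocyte enzyme Aldh1l1 was at 57.2 to 71.8 CPM (median 63.9) in cortex and 63 to 75 CPM (median 68.2) in cerebellum (log2 fold change 0.10 ± 0.05, adjusted p = 0.058), and it did pass with upper quartile scaling (adjusted p = 0.0186). Gfap, the intermediate filament gene, had overlapping libraries at 140.4 to 269 CPM (median 179.8) and 185 to 266 CPM (median 233); its log2 fold change of 0.33 ± 0.11 (adjusted p = 0.0156) did not keep its call in each alternative, with an adjusted p of 0.0514 without replicate 8 of both regions.

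Oligodendrocyte genes differed little in size. Of 15 tested, 10 were higher in cerebellum, 3 in cortex, and 1 passed the 2-fold test. That 1 gene was 6.67% of the list, near the 7.30% of all genes past the test in cerebellum. Mbp, myelin basic protein, was at 2159 to 2994 CPM (median 2429.7) in cortex and 2711 to 4989 CPM (median 3537) in cerebellum, with overlap (log2 fold change 0.50 ± 0.11, edgeR adjusted p = 0.000633). Mog, a surface glycoprotein of myelin, was at 45.1 to 66.3 CPM (median 57.8) and 46.6 to 76.5 CPM (median 57.8) (log2 fold change 0.10 ± 0.09, adjusted p = 0.323). The gene past the 2-fold test was Klk6, a secreted protease of mature oligodendrocytes, at 1.33 to 3.41 CPM (median 2.32) in cortex and 18.5 to 31 CPM (median 23.5) in cerebellum (log2 fold change 3.39 ± 0.15, adjusted p = 4.18e-14). Of 8 precursor markers, 5 were higher in cortex, and Pdgfra, the precursor receptor, was at 69.6 to 94.2 CPM (median 80.1) and 25.6 to 32.2 CPM (median 30.3) (log2 fold change -1.43 ± 0.05, adjusted p = 4.36e-17).

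Microglial genes were uniformly higher in cortex. All 13 markers passed the 2-fold test, and in all 13 the regions did not overlap, beside 10.9% and 24.5% of all genes in that direction. P2ry12, a purine receptor, was at 38.7 to 51.9 CPM (median 42.9) in cortex and 8.81 to 13.1 CPM (median 10.4) in cerebellum (log2 fold change -2.07 ± 0.08, edgeR adjusted p = 6.37e-17). Cx3cr1, the fractalkine receptor, was at 52.2 to 79.8 CPM (median 61.1) and 11.9 to 22.7 CPM (median 16.3) (log2 fold change -1.96 ± 0.12, adjusted p = 8.06e-11). C1qa, a complement subunit, was at 38.2 to 49 CPM (median 42.7) and 15.9 to 24 CPM (median 18.1) (log2 fold change -1.24 ± 0.07, adjusted p = 5.1e-13). The median log2 fold change of the 13 was -1.62, with Siglech, a microglial lectin, the largest at -2.15, and the summed level was 442 to 572 CPM in cortex and 144 to 201 CPM in cerebellum.

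Vascular genes differed less than microglial ones. Of 12 endothelial markers, 9 were higher in cortex and 0 passed the 2-fold test. Flt1, a VEGF receptor, was at 60.03 to 79.5 CPM (median 67.5) in cortex and 41.5 to 48.4 CPM (median 44.1) in cerebellum (log2 fold change -0.61 ± 0.05, edgeR adjusted p = 2.85e-10). Cldn5, the tight-junction claudin of brain vessels, was at 17.8 to 34.4 CPM (median 27.2) and 13 to 30.1 CPM (median 20.5) (log2 fold change -0.39 ± 0.18, adjusted p = 0.0577), and it did pass in DESeq2 (adjusted p = 0.0365). With a block for replicate number it also passed, at -0.40 (edgeR adjusted p = 0.0002). Of 6 mural cell markers, 3 were higher in cortex (50%, beside 37.1% of all genes). Of 8 meningeal fibroblast markers, 7 were higher in cerebellum, and no gene of either list passed the 2-fold test. All 5 haemoglobin-related genes were higher in cerebellum, with overlapping regions; Hbb-bs was at 38.5 to 84.4 CPM (median 58.6) and 48.5 to 165 CPM (median 99.2) (log2 fold change 0.78 ± 0.24, adjusted p = 0.00857), and reads could be split among near-identical globin genes.

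**Figure D3:**
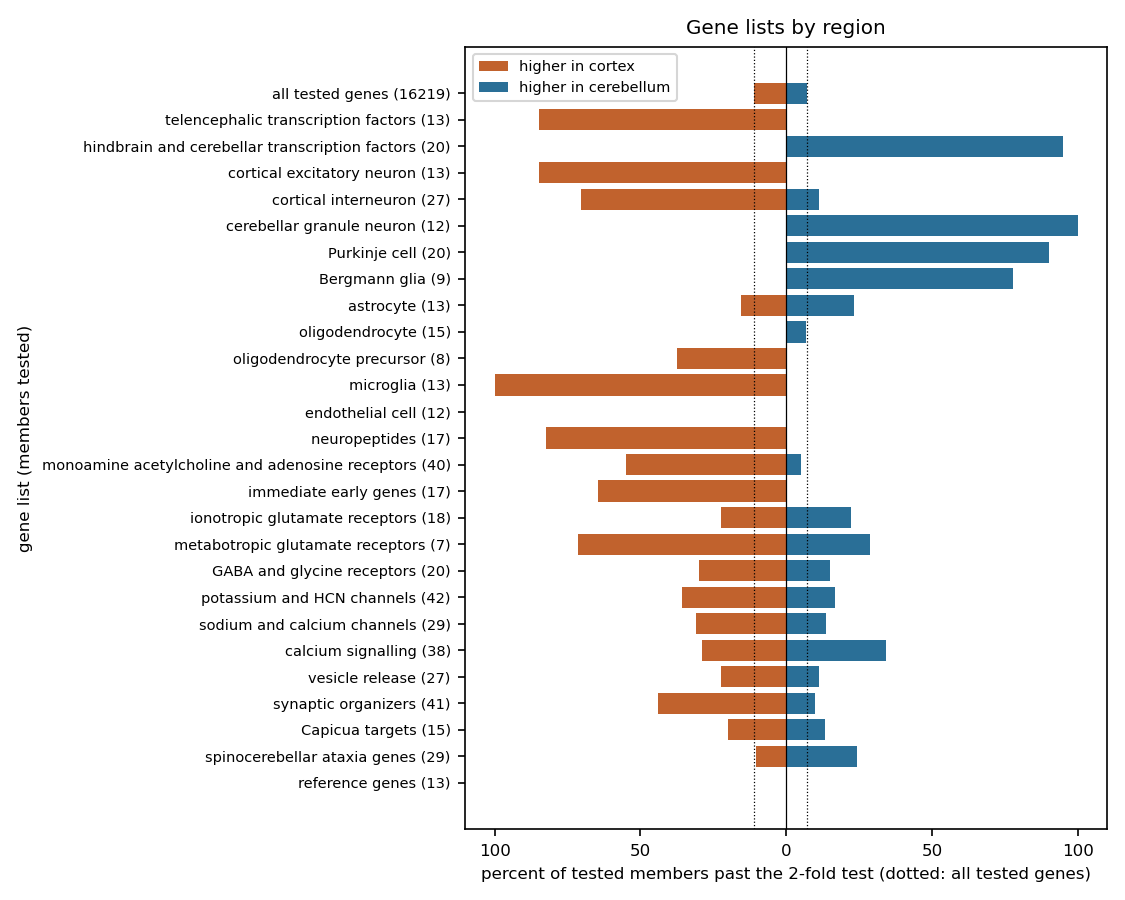
Bars give the percent of the tested members of each gene list past the 2-fold test, to the left for cortex and to the right for cerebellum, and dotted lines mark the 10.9% and 7.30% of all tested genes. The granule neuron list reaches 100% in cerebellum and the microglia list 100% in cortex, while the endothelial and reference gene lists have no bar.

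In several families, related genes differed between the regions in opposite directions. Opposite directions alone do not show which member was the more abundant in a region. Of 26 pairs of related genes, 22 could be analysed, and in 17 the members differed in opposite directions, in 16 with both past the 2-fold test. The pairs had been chosen with known regional patterns in mind, so their share is not compared with other genes. Among cerebellins, trimeric proteins that bridge neurexins to postsynaptic receptors, Cbln1 was at 9.14 to 15.5 CPM (median 13.1) in cortex and 859 to 1109.6 CPM (median 897) in cerebellum (log2 fold change 6.18 ± 0.11, edgeR adjusted p = 2.27e-18). Cbln2 was at 35.2 to 57.9 CPM (median 50.3) and 0.163 to 5.2 CPM (median 1.01) (log2 fold change -5.18 ± 0.40, adjusted p = 9.07e-09), and Cbln4 at 21.1 to 38.7 CPM (median 29.7) and 0.812 to 7.01 CPM (median 2.52) (log2 fold change -3.28 ± 0.32, adjusted p = 1.89e-07). Without replicate 1 of both regions the log2 fold change of Cbln2 was -5.93. The family was divided, Cbln1 and Cbln3 in cerebellum and Cbln2 and Cbln4 in cortex.

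Among NMDA receptor subunits, Grin2b, which prolongs the receptor current, was at 652 to 849 CPM (median 686) in cortex and 34.4 to 40.4 CPM (median 36.4) in cerebellum (log2 fold change -4.29 ± 0.06, edgeR adjusted p = 1.45e-24). Grin2c, the subunit of mature granule cells, was at 49.1 to 68.2 CPM (median 55.4) and 228 to 316 CPM (median 260.04) (log2 fold change 2.25 ± 0.08, adjusted p = 1.62e-15). Per kilobase of exon, Grin2b was at 28.8 CPM per kb in cortex and 1.48 in cerebellum, and Grin2c at 11 and 52.4, so that the more abundant of them changed with region. Grin2d did not pass and its regions overlapped, at 13.8 to 17.5 CPM (median 16) in cortex and 13.8 to 20.1 CPM (median 15.6) in cerebellum (log2 fold change 0.00 ± 0.07, adjusted p = 0.983).

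Metabotropic glutamate signalling through phospholipase C was also divided. Grm5, a receptor of that pathway, was at 248 to 302 CPM (median 276) in cortex and 13 to 23.7 CPM (median 14.7) in cerebellum (log2 fold change -4.11 ± 0.11, edgeR adjusted p = 9.08e-16), without overlap. Genes of the same pathway had log2 fold changes of -1.82 ± 0.05 for Plcb1 and 2.27 ± 0.06 for Plcb4, both phospholipases, and -2.58 ± 0.17 for Homer1 and 5.47 ± 0.06 for Homer3, both scaffolds of such receptors. Other genes cover 25.4% of the exon bases of Homer3.

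The remaining opposite pairs were factors, carriers and channel subunits. Neurod6 was at 64.8 to 97.9 CPM (median 85.8) in cortex and 6.54 to 11.3 CPM (median 8.75) in cerebellum (log2 fold change -3.26 ± 0.09, edgeR adjusted p = 4.36e-17), and Neurod1 at 8.71 to 11.6 CPM (median 10.2) and 272 to 339 CPM (median 313) (log2 fold change 4.92 ± 0.06, adjusted p = 1.22e-25). Their promoter windows are printed above. Log2 fold changes of the others were -8.31 for Lhx2 and 10.68 for Lhx1, -2.08 for Rorb and 2.17 for Rora, -3.46 for Meis2 and 3.76 for Meis1, and -5.05 for Otx1 and 3.77 for Otx2. They were -4.32 for Gabra5, -2.02 for Slc1a1 and 4.54 for Slc1a6, -1.68 for Grm2 and 3.97 for Grm4, and -3.88 for Kcnc2 and 1.31 for Kcnc1. Cacng3 and Cacng2, auxiliary subunits of AMPA receptors, differed by -4.28 and 0.58, and Cacng2 did not pass the 2-fold test. The Tbr1 and Eomes values are those given earlier.

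Pairs whose members were not called in opposite directions were Camk2a with Camk2b, Slc17a7 with Slc17a6, Ppp1r1b with Ppp1r17, Scn3b with Scn4b, and Calb1 with Calb2. Camk2b had a log2 fold change of -0.28 ± 0.04 against -5.01 ± 0.05 for Camk2a, a far smaller difference. Calb1, calbindin, was at 172 to 225 CPM (median 182) in cortex and 1259 to 1779 CPM (median 1535) in cerebellum, in the same direction as Calb2 (log2 fold change 3.02 ± 0.07, edgeR adjusted p = 1.47e-19).

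**Figure D4:**
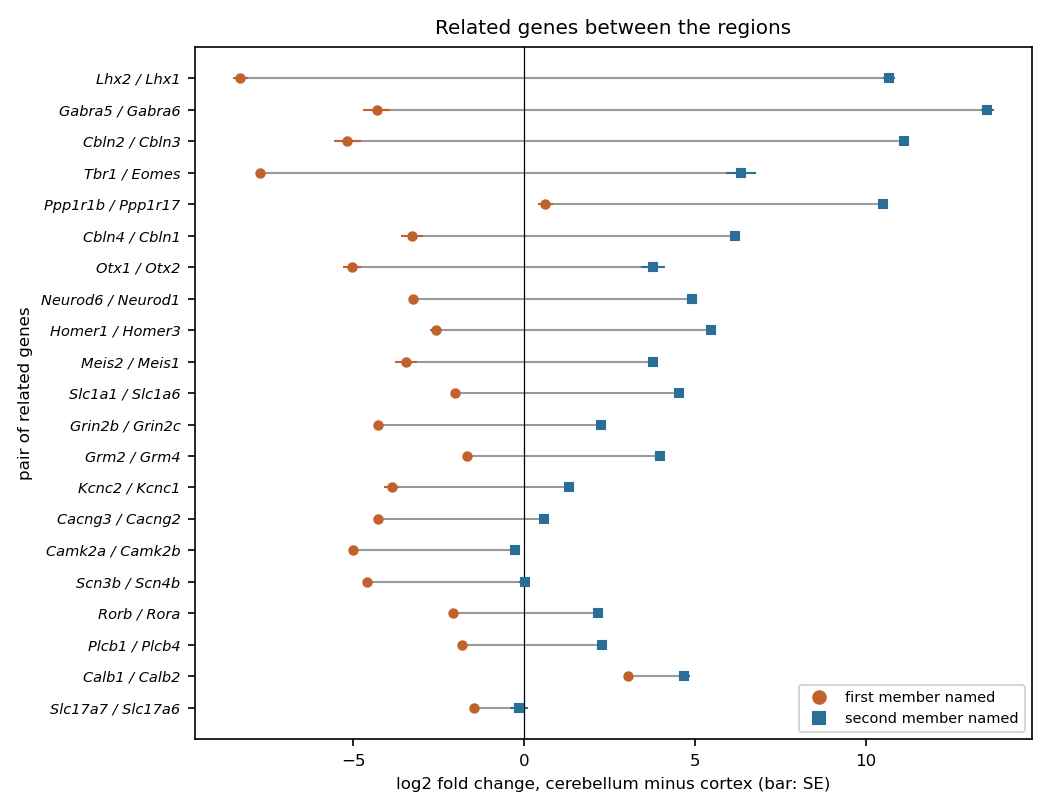
Each row is a pair of related genes, with the log2 fold change (cerebellum minus cortex) of the first named as a circle, that of the second as a square, and the SE as a bar. In 16 of the 21 pairs drawn the circle lies below 0 and the square above it.

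Over all tested genes, 37.1% were higher in cortex and 38.2% in cerebellum, and 10.9% and 7.30% passed the 2-fold test. The counts over gene families that follow are to be read against these shares. Among 18 ionotropic glutamate receptor genes, 10 were higher in cortex and 7 in cerebellum, with 4 more than 2-fold in each direction. These were 55.6% and 38.9% of the members, the latter near the share of all genes, and 22.2% past the 2-fold test each way. All 7 metabotropic receptor genes passed the 2-fold test, 5 in cortex and 2 in cerebellum. Of 20 GABA-A, GABA-B and glycine receptor genes, 12 were higher in cortex and 5 in cerebellum. Gabra5, an extrasynaptic subunit, was at 47.6 to 65.7 CPM (median 57.4) in cortex and 0.447 to 7.9 CPM (median 1.91) in cerebellum (log2 fold change -4.32 ± 0.38, edgeR adjusted p = 5.74e-08), with its highest cerebellum value in replicate 1. Gabbr1, a subunit of the metabotropic GABA receptor, was level, at 915 to 987 CPM (median 969.5) and 884 to 1052 CPM (median 946) (log2 fold change -0.02 ± 0.03, adjusted p = 0.652).

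Of 40 tested receptors for monoamines, acetylcholine and adenosine, 31 were higher in cortex, 22 of them more than 2-fold, and 6 were higher in cerebellum. The median log2 fold change was -1.88. Chrm1, the main muscarinic receptor of forebrain neurons, was at 167 to 204 CPM (median 177) in cortex and 0.374 to 1.03 CPM (median 0.675) in cerebellum (log2 fold change -8.01 ± 0.10, edgeR adjusted p = 3.89e-25). Chrm3 and Chrm4, further muscarinic receptors, had log2 fold changes of -5.36 and -5.19, and the serotonin receptors Htr2a and Htr1a -4.42 and -4.40. Among the 6 higher in cerebellum were Chrnb2, a nicotinic subunit, and Htr1b, a presynaptic serotonin receptor, with log2 fold changes of 0.91 ± 0.04 and 1.04 ± 0.09. Drd1, Drd2 and Adora2a belong to this list and are also striatal markers, which varied among the cortex libraries as given below.

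Ion channel genes were called in both directions. Of 42 potassium and HCN channel genes, 23 were higher in cortex, 15 of them more than 2-fold, and 15 in cerebellum, 7 of them more than 2-fold. Kcnv1, a silent subunit that modifies Kv2 channels, was at 142 to 176 CPM (median 159) in cortex and 0 to 0.553 CPM (median 0.176) in cerebellum (log2 fold change -9.67 ± 0.18, edgeR adjusted p = 1.75e-18). Kcnq3, a subunit of the M-current channel, had a log2 fold change of -2.57 ± 0.05. Of 29 sodium and calcium channel genes, 13 were higher in cortex (44.8%) and 11 in cerebellum (37.9%), not far from the shares of all genes, and 9 and 4 passed the 2-fold test. The T-type channels Cacna1h and Cacna1g differed by -3.77 ± 0.13 and 2.13 ± 0.08.

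Genes of calcium signalling held some of the most abundant differences. Of 38 tested, 20 (52.6%) were higher in cortex, 11 of them more than 2-fold, and 17 (44.7%) in cerebellum, 13 of them more than 2-fold. Atp2a3, a calcium pump of the endoplasmic reticulum in Purkinje cells, was at 7.05 to 10.2 CPM (median 8.87) in cortex and 287 to 431 CPM (median 385) in cerebellum (log2 fold change 5.42 ± 0.09, edgeR adjusted p = 4.6e-21). Its relative Atp2a2, the general isoform, differed by 0.51 ± 0.06. The neuronal calcium sensors Hpca and Hpcal4 were higher in cortex, with log2 fold changes of -3.13 ± 0.06 and -5.06 ± 0.06, and Hpcal1 was higher in cerebellum at 2.55 ± 0.14.

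Among 27 genes of vesicle release, 15 were higher in cortex (55.6%) and 8 in cerebellum (29.6%, below the 38.2% of all genes), with 6 and 3 past the 2-fold test. Stx1a, a syntaxin of the fusion machinery, was at 326 to 373 CPM (median 349.8) in cortex and 1.74 to 4.21 CPM (median 2.24) in cerebellum (log2 fold change -7.18 ± 0.11, edgeR adjusted p = 1.11e-19). Its libraries did not overlap between the regions. Of 41 synaptic organizers, 26 were higher in cortex, 18 of them more than 2-fold, and 10 in cerebellum, 4 of them more than 2-fold. Of 13 amino acid transmitter transporters, 7 were higher in cerebellum and 5 in cortex.

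Most tested neuropeptide genes were higher in cortex. Of 17 tested, 15 were higher in cortex, 14 of them more than 2-fold, and 0 in cerebellum, with a median log2 fold change of -4.48. Cck, cholecystokinin, was at 214 to 269 CPM (median 252) in cortex and 23.9 to 33.5 CPM (median 27.2) in cerebellum (log2 fold change -3.11 ± 0.07, edgeR adjusted p = 9.11e-19). Npy was at 54.8 to 70.6 CPM (median 61.9) and 6.17 to 9.82 CPM (median 8.11) (log2 fold change -2.95 ± 0.08, adjusted p = 1.18e-18). Pdyn, prodynorphin, also a spinocerebellar ataxia gene, was at 21 to 46.8 CPM (median 32.3) in cortex and 0.0689 to 0.738 CPM (median 0.222) in cerebellum (log2 fold change -6.88 ± 0.32, adjusted p = 5.44e-12). Penk, proenkephalin, and Pomc did not pass. Members below the low-count filter were not tested. Of these, Gal and Npb had more reads in cerebellum, and Avp, Hcrt, Oxt and Pmch had more in cortex. Among neurotrophin genes, Bdnf differed by -0.93 ± 0.12, Ntrk2, its receptor, by -0.80 ± 0.04, and Ntf3, another ligand, by 1.87 ± 0.15.

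Immediate early genes, which neurons switch on within minutes of activity, were mostly higher in cortex and varied between libraries. Of 17 tested, 12 were higher in cortex, 11 of them more than 2-fold, and 1 in cerebellum. Egr3 was at 191 to 361 CPM (median 308) in cortex and 0.406 to 1.02 CPM (median 0.574) in cerebellum (log2 fold change -8.89 ± 0.19, edgeR adjusted p = 1.67e-16). Egr1 was at 245 to 726 CPM (median 505) and 26.3 to 48.5 CPM (median 32.8) (log2 fold change -3.83 ± 0.21, adjusted p = 1.02e-10), and Arc, which acts at activated synapses, at 36.8 to 602 CPM (median 382) and 15 to 20.01 CPM (median 18.5) (log2 fold change -4.25 ± 0.43, adjusted p = 2.56e-07). For all these genes the lowest cortex library, replicate 4 for Arc and Egr1, was still above the highest cerebellum library.

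Fos did not follow the rest. It was at 10.7 to 89.6 CPM (median 55) in cortex and 4.55 to 94.9 CPM (median 42.3) in cerebellum, and its regions overlapped (log2 fold change -0.19 ± 0.50, edgeR adjusted p = 0.746). Replicate 4 was the lowest and replicate 2 the highest in both regions. The labels do not say that equal numbers mark the same animal.

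Markers of neighbouring tissue varied between libraries of a region, and the cause was not tested. Ttr, transthyretin, the most abundant transcript of choroid plexus, was at 13.9 to 547 CPM (median 18.9) in cortex and 11 to 2669 CPM (median 1249) in cerebellum (log2 fold change 3.30 ± 1.11, edgeR adjusted p = 0.0143). Cortex replicates 2 and 6 were the highest in cortex, at 384 and 547 CPM, and cerebellum replicate 6 was the lowest of all libraries. Without these 3 libraries the log2 fold change of Ttr was 6.27, and without replicate 6 of both regions 4.37. All 8 choroid plexus markers were higher in cerebellum, but in 7 of them the regions overlapped, and the summed level was 306 to 1286 CPM in cortex and 244 to 5362 CPM in cerebellum. Otx2, a factor of choroid plexus and of cerebellar granule cells, was the member whose regions did not overlap, with a log2 fold change of 3.77, or 4.63 without those 3 libraries.

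Striatal markers varied within cortex. The summed level of 8 tested markers was 179 to 592 CPM in cortex and 215 to 239 CPM in cerebellum. Drd2, the dopamine receptor of striatopallidal neurons, was at 0.903 to 22.4 CPM (median 8.88) in cortex and 0.261 to 1.48 CPM (median 0.915) in cerebellum (log2 fold change -3.36 ± 0.64, edgeR adjusted p = 0.000227), highest in cortex replicates 2, 4, 5 and 7. The part of striatal RNA in the cortical values of Drd1, Drd2, Adora2a, Tac1 and Pdyn was not tested.

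Markers of hindbrain outside the cerebellum were low and uneven. None of the 30 Hox genes, which pattern the brainstem and spinal cord, passed the low-count filter. Summed over the 30 genes, reads per library were 0 to 11 in cortex. In cerebellum they were 16 to 62 in replicates 3 to 8, 244 in replicate 1 and 336 in replicate 2. Glra1, the glycine receptor of brainstem and spinal cord, was at 0.455 to 0.968 CPM (median 0.689) in cortex and 0.946 to 23.7 CPM (median 5.02) in cerebellum, with replicates 1 and 2 the highest (log2 fold change 3.29 ± 0.68, edgeR adjusted p = 0.000455). Without replicate 1 of both regions it was 2.68.

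Some genes that were high in cortex had their highest cerebellum value in replicate 1. Lamp5, a marker of superficial layers, was at 203 to 275 CPM (median 250.3) in cortex and 0.447 to 38.9 CPM (median 6.5) in cerebellum, highest in replicate 1 and next in replicate 2 (log2 fold change -4.62 ± 0.59, edgeR adjusted p = 3.97e-06), and its log2 fold change was -5.39 without replicate 1 of both regions. Without cerebellum replicates 1 and 2, a choice made after seeing the data, the log2 fold changes were -5.91 for Lamp5, 2.31 for Glra1, -6.03 for Cbln2, -5.03 for Gabra5, -6.45 for Sst and -10.31 for Kcnv1. Without those libraries, 3120 genes passed the 2-fold test, 1929 in cortex and 1191 in cerebellum. Without cortex replicates 2 and 6 and cerebellum replicate 6, also chosen after seeing the data, 2923 passed, 1718 and 1205. In the first case 97.4% and in the second 95.1% of the genes called with all 16 libraries were called again.

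**Figure D5:**
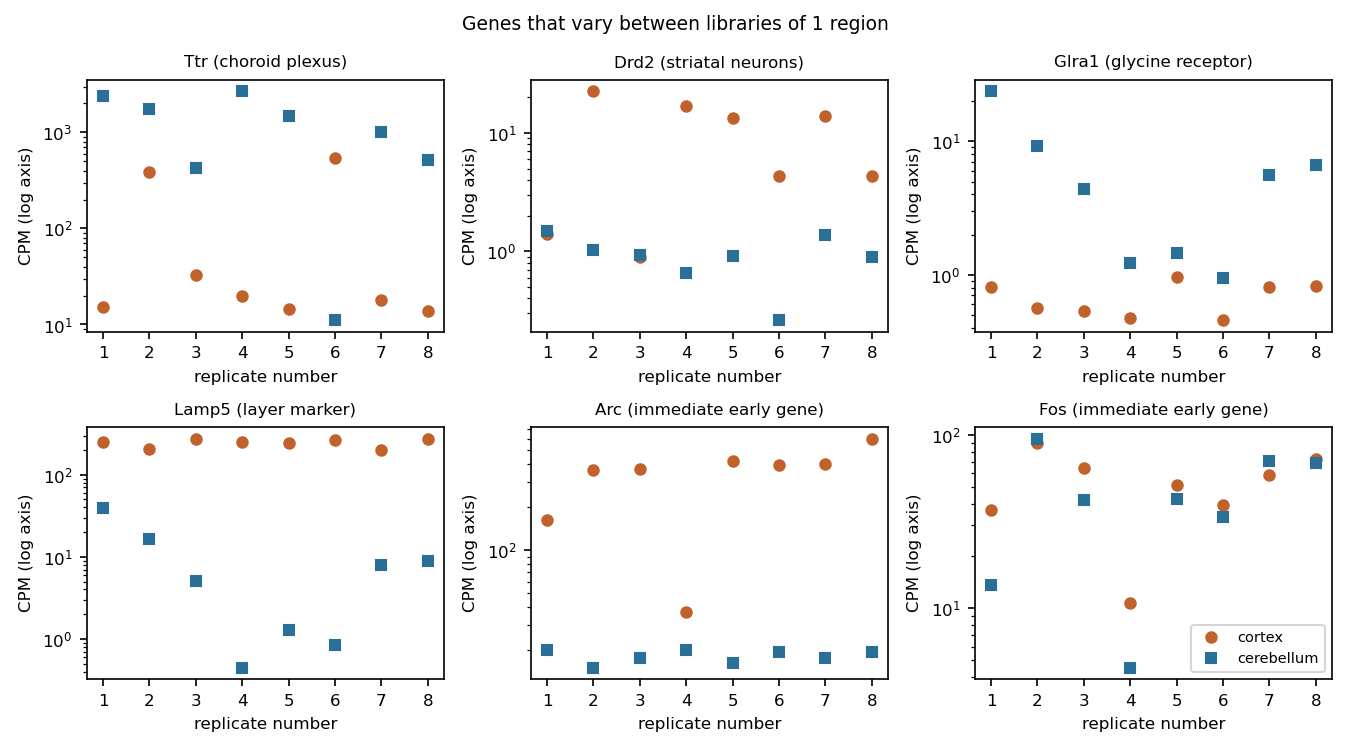
CPM on a log axis against the replicate number for 6 genes that varied among libraries of a region, cortex as circles and cerebellum as squares. Ttr is lowest in cerebellum replicate 6, at 11.0 CPM, and high in cortex replicates 2 and 6; Glra1 and Lamp5 are highest in cerebellum replicate 1; Arc is lowest in cortex replicate 4, at 36.8 CPM.

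Of Xist, which silences an X chromosome in females, and the Y-linked genes Ddx3y, Eif2s3y, Kdm5d and Uty, 0 of 5 differed between the regions by the test. Libraries of each region varied widely in them, Xist at 0.041 to 917 CPM in cortex and 0 to 841 CPM in cerebellum. Ddx3y was at 0 to 85.4 CPM and 0 to 120 CPM. At this spread the test could hardly call a regional difference, so none can be concluded absent. With Y-linked expression as a covariate, 2976 genes passed the 2-fold test instead of 2955.

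The genes with the largest differences included some that are not usual regional markers. Cnpy1, a relative of the canopy proteins that act on FGF receptor signalling at the midbrain and hindbrain border, was at 0 to 0.0869 CPM (median 0) in cortex and 174 to 259.6 CPM (median 216) in cerebellum (log2 fold change 13.04 ± 0.17, edgeR adjusted p = 2.04e-22), and its log2 fold change was 13.67 without replicate 2 of both regions. Sycp1, known as a protein of the meiotic synaptonemal complex, had 5882 reads in cerebellum and 0 in cortex. Its cerebellum level was 1771 times a floor of 3 counts over the total counts of the cortex libraries. Crtam, known as a surface receptor of cytotoxic lymphocytes, was at 0 to 0.379 CPM (median 0) and 99.1 to 137 CPM (median 125) (log2 fold change 10.81 ± 0.24, adjusted p = 7.46e-17). Cortex replicate 6 held 10 of its 12 cortex reads, and without that replicate of both regions the log2 fold change was 12.79. Dao, the D-amino acid oxidase of hindbrain astroglia, was at 0 to 0.246 CPM (median 0.116) in cortex and 85 to 105 CPM (median 94.8) in cerebellum (log2 fold change 9.67 ± 0.16, adjusted p = 2.13e-21).

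The other largest cerebellar genes were Lbx1, Slc5a1 and Nrk, beside the Purkinje, Golgi and granule cell genes named above. Lbx1, a homeobox factor, had 2043 reads against 0, a level 619 times the same cortex floor. Slc5a1, a glucose carrier, had 3560 against 2, a ratio of 1687 with a counting interval of 467 to 13934. Nrk, a kinase, had a log2 fold change of 10.06 ± 0.20. In cortex, the largest included, beside those named, Gm11549, Crym, Dlx1, Nr2e1 and Dlx2. Crym, a thyroid hormone binding protein of deep layers, differed by -9.55 ± 0.17, Dlx1 by -9.35 ± 0.15 and Nr2e1 by -8.65 ± 0.16; the last 2 are transcription factors. Gm11549 had 11021 reads against 3 and Dlx2 had 1012 against 2, ratios of 3877 (counting interval 1326 to 18801) and 534 (147 to 4415).

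In all, 12 tested genes had no read in any cortex library and 14 none in any cerebellum library. Those with the most reads in the other region were Sycp1, Lbx1, Spag17os, Vmn2r2 and Gm16193 in cerebellum, and Fezf2, Dlx6, Gm49552 and Xirp2, among others, in cortex. Several of these were low, at least 129-fold higher in cortex for Xirp2, while the cerebellum level of Vmn2r2 was 95.3 times the cortex floor of 3 counts. Spag17os and Gm16193 are annotated as antisense and Vmn2r2 belongs to a large receptor family, so their counts are uncertain.

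Few genes could be shown to be level between the regions, since a narrow interval also needs a small standard error. In 181 genes (1.12%) the 95% interval of the log2 fold change lay within 0.1 of 0. The 10 most abundant per kilobase included Pebp1, Cadm4, Eif4a2, Dynlrb1, Rab2a, Acot7, Sv2a, Gabbr1 and Ctsb, with log2 fold changes between -0.02 and 0.03. Pebp1, an inhibitor of RAF kinase, was at 338 to 387 CPM (median 369) in cortex and 340.4 to 381 CPM (median 367) in cerebellum (log2 fold change -0.01 ± 0.03, edgeR adjusted p = 0.858). The libraries of the regions overlapped. With an offset for GC content, 5 of these 9 were called by edgeR: Pebp1 at 0.09 (adjusted p = 0.0171), Cadm4 at 0.12, Eif4a2 at -0.13, Rab2a at -0.11 and Acot7 at 0.12.

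Genes often used to normalise PCR were not all level. Of 13 tested, 10 were higher in cortex, 2 in cerebellum, and 0 passed the 2-fold test. Actb, beta-actin, was at 812 to 896 CPM (median 842) in cortex and 529.9 to 643 CPM (median 561) in cerebellum, without overlap (log2 fold change -0.58 ± 0.04, edgeR adjusted p = 1.53e-12). Ywhaz, a 14-3-3 protein, differed by -0.96 ± 0.03 and Gapdh, the glycolytic enzyme, by -0.22 ± 0.03. Rplp0, a ribosomal protein, was the one that did not pass, at 183 to 222 CPM (median 193) and 189 to 212 CPM (median 201) (log2 fold change 0.04 ± 0.04, adjusted p = 0.384). Of 13 mitochondrially encoded genes, 9 were higher in cortex, with a median log2 fold change of -0.25, and 0 passed the 2-fold test.

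Capicua itself differed little between wild-type regions. Cic was at 155 to 177 CPM (median 165) in cortex and 164 to 203 CPM (median 182) in cerebellum, with overlap (log2 fold change 0.14 ± 0.04, edgeR adjusted p = 0.00508), and the call was lost without cortex replicates 2 and 6 and cerebellum replicate 6 (adjusted p = 0.0759). Counts per gene hold both isoforms together. Atxn1, ataxin-1, the partner that stabilises Capicua, was at 89.2 to 107 CPM (median 99) and 38.1 to 55.3 CPM (median 48.1), without overlap (log2 fold change -1.06 ± 0.07, adjusted p = 2.58e-12). Its relative Atxn1l was at 57.8 to 64.7 CPM (median 59.7) in cortex and 61.4 to 74.1 CPM (median 72.7) in cerebellum (log2 fold change 0.23 ± 0.04, adjusted p = 2.36e-05). Per kilobase of exon, Atxn1 was at 7.06 CPM per kb in cortex and 3.39 in cerebellum, and Atxn1l at 8.05 and 9.42.

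Of 15 tested genes known to be repressed by Capicua, 9 were higher in cortex, 3 of them more than 2-fold, and 5 in cerebellum, 2 of them more than 2-fold. The 5 were 33.3% of the list, near the 38.2% of all genes. Vgf, a secreted neuronal peptide precursor, was at 353 to 494 CPM (median 449) in cortex and 31.2 to 60.3 CPM (median 40.9) in cerebellum (log2 fold change -3.36 ± 0.14, edgeR adjusted p = 1.88e-12). Dusp5, a phosphatase of ERK kinases, was at 8.98 to 30.9 CPM (median 22) and 96.6 to 149 CPM (median 132) (log2 fold change 2.57 ± 0.19, adjusted p = 4.87e-09). The ETS factors of the list were divided, with log2 fold changes of 2.03 ± 0.08 for Etv1, 0.75 ± 0.09 for Etv4 and -0.81 ± 0.13 for Etv5.

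Spinocerebellar ataxia genes, mutated in inherited degeneration of the cerebellum, were called in both directions. Of 29 tested, 15 were higher in cerebellum, 7 of them more than 2-fold, and 12 in cortex, 3 of them more than 2-fold. In cortex these were 41.4% and 10.3%, near the 37.1% and 10.9% of all genes, and in cerebellum 51.7% and 24.1%, beside 38.2% and 7.30%. The 7 included Cacna1a and Cacna1g, which encode calcium channels, the receptor gene Itpr1 and the cadherin gene Fat2, with log2 fold changes of 1.19, 2.13, 2.42 and 10.31. The 3 higher in cortex were Pdyn, Mme, a peptidase, and Ppp2r2b, a phosphatase subunit, at -6.88, -2.01 and -1.63. The polyglutamine genes Atxn2, Atxn3 and Atxn7 differed by -0.30 ± 0.05, -0.45 ± 0.05 and 0.29 ± 0.06.

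The share of region-biased genes differed with gene length and class. Among 501 tested genes that span over 300 kb, 25.3% were more than 2-fold higher in cortex and 10.8% in cerebellum, beside 10.4% and 7.17% of 5037 genes under 10 kb. Of 557 lincRNA genes, 22.3% were more than 2-fold higher in cortex and 11.7% in cerebellum, beside 10.6% and 7.05% of 13706 protein-coding genes. Of 426 processed pseudogenes, 2.58% and 3.52% were. These shares are descriptions over genes that share libraries.

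The same contrast in knockout mice, which are other samples, recovered most of it. Of the 1184 genes more than 2-fold higher in WT cerebellum, 939 (79.3%) passed in Cic-S-KO, where 6.73% of all genes did, and 897 (75.8%) in Cic-L-KO, where 6.65% did. Of the 1771 in WT cortex, 1483 (83.7%) passed in Cic-S-KO, where 1631 of all 16234 tested genes passed as higher in cortex. In Cic-L-KO 1427 (80.6%) passed, where 10.6% of all genes passed as higher in cortex. As a share of the knockout calls, these were 86.0% and 90.9% for Cic-S-KO and 81.5% and 81.8% in Cic-L-KO. The opposite sign was estimated for 1 and 0 of the WT genes with the first knockout and for 3 and 1 with the second.

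Among genes past the 2-fold test in WT, the median difference of the log2 fold change, Cic-S-KO minus WT, was -0.11 for those higher in cerebellum and 0.19 for those higher in cortex. For Cic-L-KO it was -0.21 and 0.24. These medians lie on the side of smaller differences, in genes chosen for their size in WT. Gabra6, at 13.56 ± 0.19 in WT, was at 13.53 ± 0.21 in the Cic-S-KO samples and 11.85 ± 0.25 in the Cic-L-KO samples. Camk2a, at -5.01 ± 0.05 in WT, was at -4.53 ± 0.10 and -4.33 ± 0.05, and P2ry12, at -2.07 ± 0.08, was at -1.87 ± 0.06 and -2.09 ± 0.07. Npy, at -2.95 ± 0.08 in WT, was at -2.23 ± 0.10 in the former knockout and -5.29 ± 0.11 in the latter. Cic, the gene altered in those mice, was at 0.14 ± 0.04, -0.32 ± 0.04 and -0.58 ± 0.04 in the same order. Whether the regional difference of any gene itself differed between genotypes was not tested here.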

How the data were processed

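RNA of 8 WT cortex and 8 WT cerebellum samples was analysed from the table of raw counts per gene that the authors deposited. Per the submitters' processing notes, STAR 2.7 and the mouse genome build GRCm38.p6 were used; the counter, its strand setting and the annotation are not given in the sources used here. Gene names and lengths came from GENCODE M21, which matched 50725 of 50789 IDs. edgeR 4.0.16 (R 4.3.3) was run with TMM scaling, its low-count filter and a robust quasi-likelihood fit, with glmTreat for the 2-fold call and Benjamini-Hochberg adjustment at 0.05; the scripts were tested on simulated data. DESeq2 1.42.0, other scalings, filters, covariates and left-out replicates were alternatives. Total counts of 21724461 to 30464699 set the precision, and bounds and intervals on counts cover counting error only. Floors and ratios of reads used total counts without the trimmed-mean factors. Genes were named by a rule: the 15 largest differences each way, up to 4 members of a list each way and members whose level is described, the 10 most abundant level genes, all pair members, the Capicua genes and 5 genes at 0 in each region. The members and lists were chosen with earlier results of these data known. Some genes that the rule names are not reported here.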

Additional observations from a re-analysis of the deposited data

Results flagged for a closer look

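In 15 of 173 groups of 8 libraries examined, a single library lay far from the rest of its region, where a share of 5% would be about 8.65. Genes share libraries and were chosen rather than drawn at random, so that number is not a test of chance. Of these 15, 12 were in cerebellum replicate 1. There, genes that are high in cortex stood above the other cerebellum libraries: Lamp5 at 38.9 CPM (others at most 16.5), Cbln2 at 5.20 (1.42), Sst at 10.7 (4.86), Stx1a at 4.21 (2.48), Grm5 at 23.7 (17.7), Slc1a2 at 1092 (971) and C1qa at 24.0 (18.6). Glra1 was at 23.7 CPM in the same library (others at most 9.29), Slc6a5 at 98.1 (69.4) and Grin2d at 20.1 (16.6). Genes of Purkinje cells and inhibitory neurons stood below the others in it: Itpr1 at 3611 CPM (others at least 4549) and Gad1 at 543.1 (649). The other 3 were Bhlhe22 at 136 CPM in cerebellum replicate 6 (others at most 114), Cbln1 at 1109.6 in cerebellum replicate 4 (974) and Grin2c at 68.2 in cortex replicate 4 (56.8). The cause of these values was not tested.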

How the results depend on the processing

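The number of genes that differed stayed within 1.5 times the 12220 of the main analysis under the alternatives run, and no gene was called in the opposite direction. Leaving out each replicate number in turn gave 11829 to 12121 genes that differed and 2866 to 3013 past the 2-fold test. The 2-fold count moved with the threshold: 5680 genes passed at a log2 threshold of 0.5 and 1246 at 2. DESeq2 gave 2636 and no low-count filter 4096, beside 2955. A fit with a block for replicate number called 12335 genes, while 2965 passed the 2-fold test. In 7 of 8 number pairs the deviations correlated over 0.1 (lowest 0.0613, mean 0.288, beside -0.0412 between other numbers). Of the 8 cortex samples, 3 correlated best with their own number. The labels do not say whether equal numbers mark the same animal, so the main fit had no block. With a replicate block, 2751 genes passed the 2-fold test for the Cic-S-KO samples and 2833 for those of Cic-L-KO. Of 146 genes followed over 21 settings, Pebp1 and Cadm4, not called in the main analysis, changed sign, to 0.0937 (adjusted p = 0.0171) and 0.12 (adjusted p = 0.00519) with a GC content offset in edgeR; the same offset called Eif4a2 (-0.13), Rab2a (-0.11) and Acot7 (0.12); Cldn5 passed in several settings, with the block at -0.40 (adjusted p = 0.0002 in edgeR), as did Aldh1l1, and Gfap and Cic were lost in some. Without cerebellum replicates 1 and 2, Slc17a6 passed, at -0.54. The cause was not tested. Low counts limited the lists: no Hox gene passed the filter.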

Other observations

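Lists of further brain areas were small and divided. Of 6 tested hippocampal markers, 3 were higher in cortex, all more than 2-fold, and 3 in cerebellum, 1 of them more than 2-fold. Each 3 were 50% of the list, beside 37.1% and 38.2% of all genes. Of 6 brainstem and monoamine neuron markers, 3 were higher in cerebellum, among them Slc6a5, given above with the cerebellar interneuron markers. Th, tyrosine hydroxylase, had a log2 fold change of 2.01 ± 0.19, and Dbh, which makes noradrenaline, 1.66 ± 0.65. Tph2, the serotonin-synthesising enzyme, was higher in cortex, with -1.33 ± 0.18. Chat, which makes acetylcholine, did not pass, with -1.15 ± 0.87 (edgeR adjusted p = 0.242).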
